A study of Bos taurus with 15 samples.

Results

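Cholesterol and fatty acid synthesis genes were followed in epithelial cells from the bovine endometrium, the inner layer of the uterus, that had been cultured with or without embryos. The 35 genes were chosen by symbol from the deposited table, which lists 19994 genes, and all 35 were in it. They were chosen with earlier results of these data known. Their counts of calls beside those of all genes are thus a description and no independent test. The 35 genes comprise 18 enzymes of sterol synthesis, 5 regulators of the sterol-sensing system, 3 proteins of intracellular sterol transport, 2 sterol exporters and 7 enzymes of fatty acid synthesis. All 35 passed the filter on low values, as did 12559 genes in all.

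The cells were scraped from the uteri of beef cows, pooled over 4 uteri, expanded in flasks, frozen, and used at passage 3 as untreated monolayers. Every group, the cells alone included, received transwell inserts and was kept for 48 h in synthetic oviductal fluid with 5% fetal bovine serum. Of the 15 libraries, 5 came from cells alone (library numbers 24, 83, 84, BEEC.103 and BEEC.104, where BEEC is a prefix in the titles). Another 5 came from cells whose wells held day 5.5 in vitro produced morulae, in groups of 15 ± 1, inside the transwell and away from the cells (30, 89, 90, 109 and 110). The last 5 came from cells with such morulae lying directly on the monolayer (28, 87, 97, 107 and 108). Values below are always listed in this order of libraries. Some values come also from a fit blocked by number run, meaning the stretch of library numbers (24 to 30, 83 to 90 or BEEC.103 to 110) to which a library belongs. The cells stem from a single pooled stock, so p-values measure the spread between cultures and not between cows.

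Cholesterol is built from acetyl-CoA through mevalonate, farnesyl diphosphate, squalene and lanosterol. When membranes of the endoplasmic reticulum hold little sterol, SCAP escorts the SREBP transcription factors to the Golgi, where they are cut and released to switch on genes of sterol and fatty acid synthesis. When sterol is plentiful, INSIG proteins hold SCAP back, and oxysterols activate LXR receptors, which raise exporters such as ABCA1 and ABCG1. In the uterus cholesterol serves membranes and is the precursor of steroid hormones, and uterine secretions carry lipids that early embryos take up.

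Depth and identity of the cultures were as follows. Assigned reads were 12938091 to 19792557 in 13 libraries, and lower in contact libraries 97 (4195091) and 108 (6104652). The keratins KRT8 (29337 to 39003 normalized counts in cells alone), KRT18 and KRT19 and the epithelial cadherin CDH1 were abundant, whereas the epithelial genes EPCAM, GRHL2 and CLDN7 were at 0 or near it in every group (at most 3.36). The collagens COL1A1 and COL3A1, typical of stroma, were also abundant (89962 to 116621 and 89355 to 108108 in cells alone). CLDN3, CLDN4 and ESRP1 were also low (means of 3.99, 1.22 and 17.05 in cells alone), whereas KRT7 was higher (645.88). The stromal genes COL1A2, DCN and VIM were abundant too (means of 109188, 34350 and 17303 in cells alone). THY1 and TCF21, also stromal, were near 0 (3.05 and 0.35). The label of an epithelial culture is thus met by keratins and CDH1. It is not met by EPCAM, GRHL2 and the claudins, nor by the abundant stromal genes. Of 22 embryo markers 18 were in the table and 6 passed the filter, none called in any comparison. The 12 that failed it summed to 1.7 to 6.5 in cells alone and 2.4 to 5.2 with contact, and 6 of them, NANOG among these, were at 0 throughout. Epithelial markers summed to 47709 to 70885 over all libraries and stromal markers to 329615 to 419733, and with contact 1 of 12 tested stromal genes was called higher and 1 lower, and of 3 tested leukocyte genes CD14 was called lower. Mitochondrial genes took 6.62 to 7.57% of reads with contact against 8.41 to 10.7% in cells alone and 8.22 to 11.9% with transwell embryos.

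With embryos in direct contact, 11 of the 18 sterol-synthesis enzymes were higher than in cells alone, with 1 called gene among the fatty acid genes and none among the exporters. Compared with cells alone, 13 of the 35 genes were called higher and none lower in limma (adjusted p under 0.05), where 7.17% of all 12559 tested genes were called higher and 5.78% lower. At an unadjusted p under 0.05, 17 were higher and 2 lower, against 13.2% and 13.1% of all tested genes. Of the 18 sterol enzymes 11 rose, with a median log2 difference of 0.29 over all 18, against -0.01 over all tested genes. Among the 7 fatty acid genes 1 rose, with a median of 0.24, and among the 5 regulators 1 rose, with a median of 0.13. In lists this short 1 call is near the share of all tested genes. All 7 fatty acid differences were positive, and no test compared the sterol list with the fatty acid list. None of the 3 transport genes and neither exporter was called. With upper quartile scaling 8 of the 35 were called higher, and the split of all genes was 722 higher and 1020 lower in place of 901 and 726. Log2 differences are on the scale log2(normalized count + 1). Bulk RNA cannot tell more cells of a kind from more RNA per cell, and this holds for every difference given here.

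**Figure D1:**
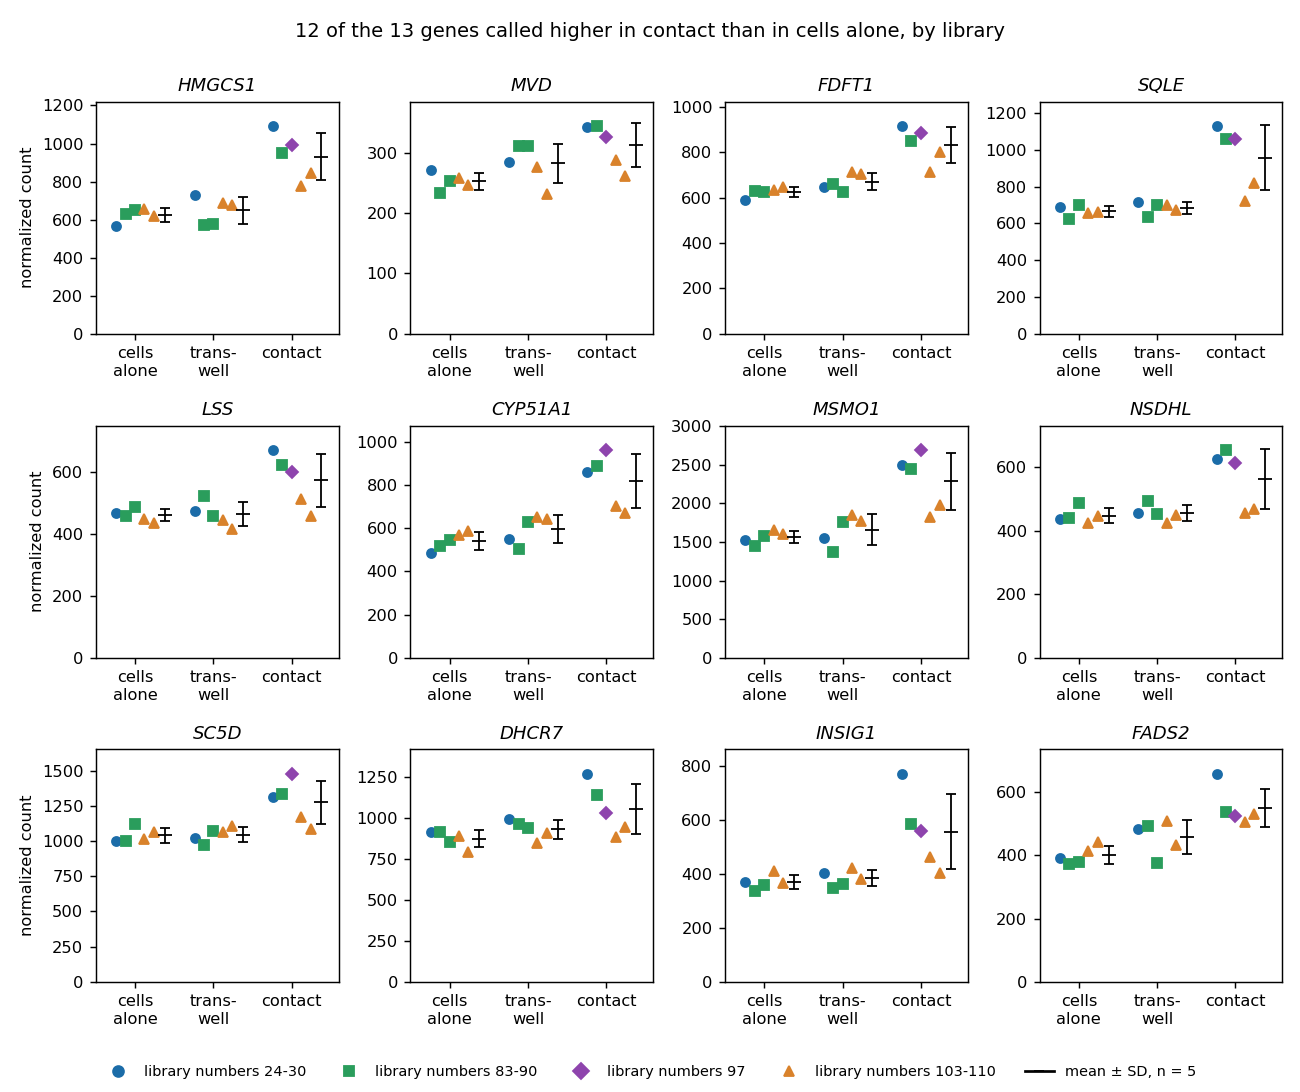
Normalized counts (vertical axes, linear, from 0) of 12 of the 13 genes called higher with contact than in cells alone, in each library. Symbols are libraries, their shape and colour mark the run of library numbers, and black bars are mean ± SD of the 5 libraries of cells alone, transwell embryos and contact. In 6 of the panels, HMGCS1, CYP51A1, FDFT1, MSMO1, SQLE and FADS2, every contact library lies above every cells-alone library. The panels were chosen for being called, and the share of all tested genes that separate in this way was not counted. SCD and FADS1, which were not called and are not drawn, separate in this way too. EBP, the 13th called gene, had the largest p and is not drawn.

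At the head of the pathway, HMGCS1 makes HMG-CoA from acetoacetyl-CoA and acetyl-CoA. Its libraries read 568, 631, 649, 655 and 619.8 normalized counts in cells alone, 731, 570.1, 579, 688 and 676 with embryos in the transwell and 1089.8, 951, 991, 779 and 847 with contact. The contact libraries lay above all 10 others, and the transwell libraries spread around the cells-alone libraries. The mean rose 1.48-fold from 624 ± 34.3 in cells alone to 932 ± 122 with contact (SD, n = 5 each; log2 difference 0.57 ± 0.09 SE, limma adjusted p = 0.000125). Against transwell embryos the log2 difference was 0.52 ± 0.09 SE, limma adjusted p = 0.00084. ACAT2, which makes acetoacetyl-CoA in the cytosol, stood at 463 to 585 normalized counts in cells alone, 482 to 533 with transwell embryos and 511 to 672 with contact and was not called in any comparison. Its locus overlaps TCP1 in RefSeq, so reads may be shared.

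Of the 5 enzymes from mevalonate to farnesyl diphosphate only MVD was called. MVD, which makes isopentenyl diphosphate, read 272, 234, 253, 258 and 246 normalized counts in cells alone, 284, 311, 310.2, 276 and 231 with embryos in the transwell and 343, 343, 326, 287 and 262 with contact. Contact libraries 28, 87, 97 and 107 lay above all of the cells alone, and 108 fell within their range. MVD rose against cells alone (log2 difference 0.30 ± 0.10 SE, limma adjusted p = 0.0423) and was not called against transwell embryos (0.14, adjusted p = 0.42). IDI1, the isomerase of isopentenyl diphosphate, read 353, 379.7, 464, 449 and 415 normalized counts in cells alone, 437, 341, 556, 428 and 479 with embryos in the transwell and 546, 616, 568, 414 and 486 with contact. Contact library 107 lay inside the range of cells alone, and the log2 difference of 0.34 missed the threshold (limma adjusted p = 0.0638). FDPS, the farnesyl diphosphate synthase, read 1184, 1278, 1321, 1163 and 1119 normalized counts in cells alone, 1285, 1367, 1541, 1101 and 1252 with embryos in the transwell and 1525, 1595, 1425, 1163 and 1290.1 with contact. Here 28, 87 and 97 were the high contact libraries, and the difference was 0.20 (limma adjusted p = 0.162, and 0.0181 when blocked by number run). The kinases MVK and PMVK, which phosphorylate mevalonate, had log2 differences of 0.13 and -0.04 and were not called. MVK stood at 397 to 449.8 normalized counts in cells alone, 374 to 491 with transwell embryos and 407 to 517 with contact. PMVK is a low gene, at 27.7 to 47.9 normalized counts in cells alone, 28.4 to 41.8 with transwell embryos and 23.5 to 45.0 with contact.

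All 3 enzymes around squalene rose. FDFT1, the squalene synthase, read 591, 629.7, 623, 633 and 645 normalized counts in cells alone, 648, 662, 625, 713 and 704 with embryos in the transwell and 913, 848, 884, 711 and 802 with contact. Each contact library lay above every library of cells alone, and contact library 107 lay within the transwell range. FDFT1 rose against cells alone (log2 difference 0.41 ± 0.07 SE, limma adjusted p = 0.000351) and against transwell embryos (0.31 ± 0.07 SE, limma adjusted p = 0.01). SQLE, the squalene epoxidase and a rate-limiting step, read 691, 626, 700.3, 658 and 659.5 normalized counts in cells alone, 717, 635, 700.2, 701 and 675 with embryos in the transwell and 1127, 1061, 1059, 723 and 818 with contact. All 5 contact libraries exceeded the other 10, with 107 and 108 closest to them. SQLE rose 1.42-fold against cells alone (log2 difference 0.50 ± 0.10 SE, limma adjusted p = 0.00118) and 1.38-fold against transwell embryos (0.46 ± 0.10 SE, limma adjusted p = 0.00509). LSS, which closes squalene epoxide to lanosterol, read 469, 459, 487, 450.2 and 436 normalized counts in cells alone, 476, 522, 459, 446 and 417 with embryos in the transwell and 670.3, 623, 602, 513 and 459.9 with contact. Library 108 fell within the cells-alone range. LSS rose against cells alone (0.30 ± 0.09 SE, limma adjusted p = 0.0287) and was not called against transwell embryos (0.30, adjusted p = 0.0589).

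Downstream of lanosterol, the enzymes that remove methyl groups and shift double bonds rose in 6 of 8 cases. CYP51A1, the lanosterol demethylase, read 485, 517, 546, 568 and 589 normalized counts in cells alone, 551, 504, 627, 654 and 642 with embryos in the transwell and 862, 891, 961, 704 and 669.8 with contact. No contact library overlapped either other group. CYP51A1 rose against cells alone (log2 difference 0.58 ± 0.10 SE, limma adjusted p = 0.000301) and against transwell embryos (0.45 ± 0.10 SE, limma adjusted p = 0.00743). MSMO1, the sterol methyl oxidase, read 1530.1, 1445, 1583, 1657 and 1598 normalized counts in cells alone, 1546, 1371, 1764, 1849.9 and 1766 with embryos in the transwell and 2493, 2444, 2685, 1829 and 1974 with contact. Contact library 107 lay within the transwell range and above all of the cells alone. MSMO1 rose by a log2 difference of 0.53 ± 0.10 SE against cells alone (limma adjusted p = 0.00078) and 0.46 ± 0.10 SE against transwell embryos (limma adjusted p = 0.00682). NSDHL, the dehydrogenase that acts after it, read 437, 439, 487, 425 and 445 normalized counts in cells alone, 456, 493, 453, 424 and 448 with embryos in the transwell and 625, 652, 612, 455 and 467 with contact. Contact libraries 107 and 108 were within the cells-alone range and the other 3 far above it. NSDHL rose against cells alone (0.32 ± 0.09 SE, limma adjusted p = 0.0277).

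SC5D, the sterol desaturase late in the pathway, read 999, 1001, 1120.2, 1016 and 1066 normalized counts in cells alone, 1021, 970.4, 1072, 1062 and 1111 with embryos in the transwell and 1316, 1337, 1475, 1170.0 and 1085 with contact. Contact library 108 fell among the cells alone and the other 4 lay above them. SC5D rose against cells alone (0.29 ± 0.07 SE, limma adjusted p = 0.0122) and against transwell embryos (0.28 ± 0.07 SE, limma adjusted p = 0.0296). DHCR7, which makes cholesterol from dehydrocholesterol, read 911, 912, 850.0, 891 and 789.6 normalized counts in cells alone, 992, 959, 934, 847 and 906 with embryos in the transwell and 1263, 1141, 1028, 882 and 941 with contact. Libraries 28, 87 and 97 were high, 107 was inside the cells-alone range and 108 just above it, and the log2 difference was 0.26 ± 0.08 SE, limma adjusted p = 0.0426. EBP, the sterol isomerase, stood at 175 to 226 normalized counts in cells alone, 176 to 221 with transwell embryos and 224 to 272 with contact, with a log2 difference of 0.28 ± 0.09 SE, limma adjusted p = 0.0482. TM7SF2, a sterol reductase, went the other way without a call, at 157 to 226 normalized counts in cells alone, 157 to 232 with transwell embryos and 129 to 211 with contact (log2 difference -0.30, adjusted p = 0.176). HSD17B7, a sterol ketoreductase, stood at 412 to 501 normalized counts in cells alone, 398 to 504 with transwell embryos and 453 to 507 with contact, differed by 0.10 and was not called.

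Of the calls against cells alone, 5 lay close to the threshold and were lost when any of several single libraries was left out, with log2 differences that stayed positive over the 28 alternatives (MVD 0.26 to 0.36, LSS 0.24 to 0.38, NSDHL 0.26 to 0.39, DHCR7 0.19 to 0.32 and EBP 0.22 to 0.34). Without cells-alone library 83 or BEEC.103, or contact library 28, 87 or 97, the number of genes called higher was 8 instead of 13. MVD lost its call without cells-alone libraries 83 (0.112), 84 (0.0762), BEEC.103 (0.0633) or BEEC.104 (0.0776), transwell library 30 (0.0507), or contact libraries 28 (0.108), 87 (0.115) or 97 (0.0917) (each left out alone, with the limma adjusted p in brackets). LSS lost it without cells-alone libraries 83 (0.0603), BEEC.103 (0.0573) or BEEC.104 (0.0634), or contact libraries 28 (0.09), 87 (0.085) or 97 (0.0725). NSDHL lost it without cells-alone libraries 24 (0.0589), 83 (0.0633) or BEEC.103 (0.0625), or contact libraries 28 (0.0802), 87 (0.0946) or 97 (0.079). DHCR7 lost it without cells-alone libraries 24 (0.0558), 83 (0.0608), 84 (0.0883), BEEC.103 (0.0614) or BEEC.104 (0.105), transwell library 110 (0.0512), or contact libraries 28 (0.13), 87 (0.117) or 97 (0.0716). EBP lost it without cells-alone libraries 24 (0.144), 83 (0.107), BEEC.103 (0.0614) or BEEC.104 (0.0636), transwell libraries 30 (0.0568), 89 (0.0517) or 110 (0.0584), or contact libraries 28 (0.106), 87 (0.128), 97 (0.0654) or 107 (0.065). HMGCS1, FDFT1, SQLE, CYP51A1, MSMO1, SC5D, INSIG1 and FADS2 kept theirs under all 28 alternatives. Against transwell embryos SC5D lost its call without transwell libraries 30 (0.0686) or 89 (0.0773), or contact libraries 28 (0.0695), 87 (0.0764) or 97 (0.098), and INSIG1 without transwell library 89 (0.0516).

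The regulators were led by INSIG1, which retains SCAP in the endoplasmic reticulum and is itself a target of SREBP. INSIG1 read 371, 339, 360.0, 411 and 366 normalized counts in cells alone, 405, 349, 364, 422 and 381 with embryos in the transwell and 771, 587, 561, 463 and 406 with contact. Contact library 28 was highest, and only 108 fell within the range of cells alone. INSIG1 rose 1.48-fold against cells alone (log2 difference 0.56 ± 0.12 SE, limma adjusted p = 0.00361) and 1.42-fold against transwell embryos (0.50 ± 0.12 SE, limma adjusted p = 0.0164). Its relative INSIG2 read 647, 572, 629, 806 and 836 normalized counts in cells alone, 641, 592, 739, 888 and 868 with embryos in the transwell and 819, 863, 934, 813 and 788 with contact. In cells alone, libraries BEEC.103 and BEEC.104 exceeded the other 3, and contact libraries 107 and 108 lay near them. The log2 difference with contact was 0.29 (limma adjusted p = 0.113).

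The genes of the transcription factors themselves and of SCAP were not called. SREBF2, which encodes the SREBP that mainly drives sterol genes, read 1808, 1711, 1620.4, 1675 and 1609 normalized counts in cells alone, 1780.1, 1959, 1503, 1559.8 and 1415 with embryos in the transwell and 2210.2, 1826, 1609.7, 1771 and 1816 with contact. Library 28 stood highest, 87 and 108 lay just above the cells alone and 97 and 107 within their range, with a log2 difference of 0.13 (limma adjusted p = 0.388). SREBF1, whose product mainly drives fatty acid genes, differed by -0.12, and the escort SCAP by 0.03. SREBF1 stood at 1008 to 1202 normalized counts in cells alone, 938 to 1309 with transwell embryos and 796 to 1139 with contact. SCAP stood at 1754 to 2003 normalized counts in cells alone, 1664 to 1949 with transwell embryos and 1784 to 1940.1 with contact. The groups overlapped for both. The SREBF1 locus overlaps RAI1 in RefSeq. Transcript levels say nothing of the cutting of SREBP proteins, which was not measured here.

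Sterol transport genes did not pass the test. NPC1, which moves cholesterol out of lysosomes, read 484, 521, 492, 478 and 479.7 normalized counts in cells alone, 502, 439.6, 337, 502 and 445 with embryos in the transwell and 518, 400.4, 437, 465 and 432 with contact. NPC2, its soluble partner, read 563, 507, 516, 593 and 622 normalized counts in cells alone, 594, 475, 486, 576 and 642 with embryos in the transwell and 614, 589.8, 608, 551 and 634 with contact. Both genes overlapped between groups, and transwell library 90 held the lowest NPC1 value. Their log2 differences with contact were -0.13 and 0.10, and that of STARD4, which carries sterol between membranes, was 0.15. STARD4 stood at 143 to 201 normalized counts in cells alone, 109 to 197 with transwell embryos and 170.4 to 232 with contact. The NPC1 locus overlaps RMC1 in RefSeq.

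The exporters were lower in mean with contact but spread widely. ABCA1, which loads cholesterol onto apolipoproteins, read 522, 366, 338, 438 and 445 normalized counts in cells alone, 500.0, 299.6, 129, 382 and 343 with embryos in the transwell and 286, 178, 161, 364 and 377 with contact. Transwell library 90 had the lowest value of all, and contact libraries 107 and 108 lay among the cells alone. The log2 difference was -0.69 ± 0.33 SE, limma adjusted p = 0.2, not called. ABCG1, which exports sterol to larger lipoproteins, read 30.1, 45.5, 32.5, 20.4 and 20.8 normalized counts in cells alone, 46.3, 26.5, 20.1, 27.9 and 27.4 with embryos in the transwell and 17.7, 15.6, 30.2, 13.9 and 16.5 with contact. Contact library 97, the shallowest, lay within the cells-alone range and the other 4 below it. The difference was -0.63 ± 0.26 SE, limma adjusted p = 0.116, not called in the fit over all libraries. Without contact library 97 ABCG1 was called lower (-0.81, limma adjusted p = 0.043), and without any other single library neither exporter was called. When blocked by number run ABCG1 was called lower (-0.80, limma adjusted p = 0.0212). Contact library 97, alone outside the runs, does not bear on the blocked value, so both fits set aside the same library.

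The fatty acid gene that rose was FADS2, the first desaturase in the making of long polyunsaturated fatty acids. FADS2 read 392, 372, 381, 415 and 442 normalized counts in cells alone, 484, 492, 377, 509 and 434 with embryos in the transwell and 657, 539, 524, 506 and 531 with contact. Contact libraries all exceeded the cells alone, whereas library 107 lay within the transwell range. FADS2 rose 1.37-fold (log2 difference 0.46 ± 0.09 SE, limma adjusted p = 0.00136) and against transwell embryos the difference was 0.27 (limma adjusted p = 0.0882). FADS1, the next desaturase, lies beside and overlaps FADS2 in RefSeq, so reads may be shared. It stood at 187 to 214 normalized counts in cells alone, 137 to 266 with transwell embryos and 219 to 292 with contact (log2 difference 0.28, limma adjusted p = 0.222).

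ELOVL6, which lengthens palmitate, read 262, 323, 297, 298 and 314 normalized counts in cells alone, 298, 265, 308, 374 and 318 with embryos in the transwell and 340.0, 377, 306, 351 and 387 with contact. Groups overlapped, and the difference was 0.24 (limma adjusted p = 0.102, and 0.0247 when blocked by number run). SCD, which makes oleate, read 205, 234, 233, 218 and 232 normalized counts in cells alone, 303, 203, 114, 243 and 228 with embryos in the transwell and 409.9, 242, 373, 255 and 255 with contact. Contact libraries 28 and 97 were far above the other 3, which themselves lay just above the cells alone, and transwell library 90 was lowest. The SCD difference of 0.42 was not called (limma adjusted p = 0.207). The core enzymes of the pathway were not called. ACLY, which makes cytosolic acetyl-CoA, stood at 1182 to 1311 normalized counts in cells alone, 1204 to 1352 with transwell embryos and 1260.2 to 1605 with contact (log2 difference 0.11). ACACA, which makes malonyl-CoA, stood at 698 to 739 normalized counts in cells alone, 485 to 748 with transwell embryos and 725 to 856 with contact (0.13). FASN, the fatty acid synthase, stood at 2311 to 2604 normalized counts in cells alone, 2073 to 2769.6 with transwell embryos and 2457 to 3098 with contact (0.12). All 7 fatty acid genes had positive differences, and 6 of the 7 were not called. ACACA overlaps C19H17orf78 in RefSeq.

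**Figure D2:**
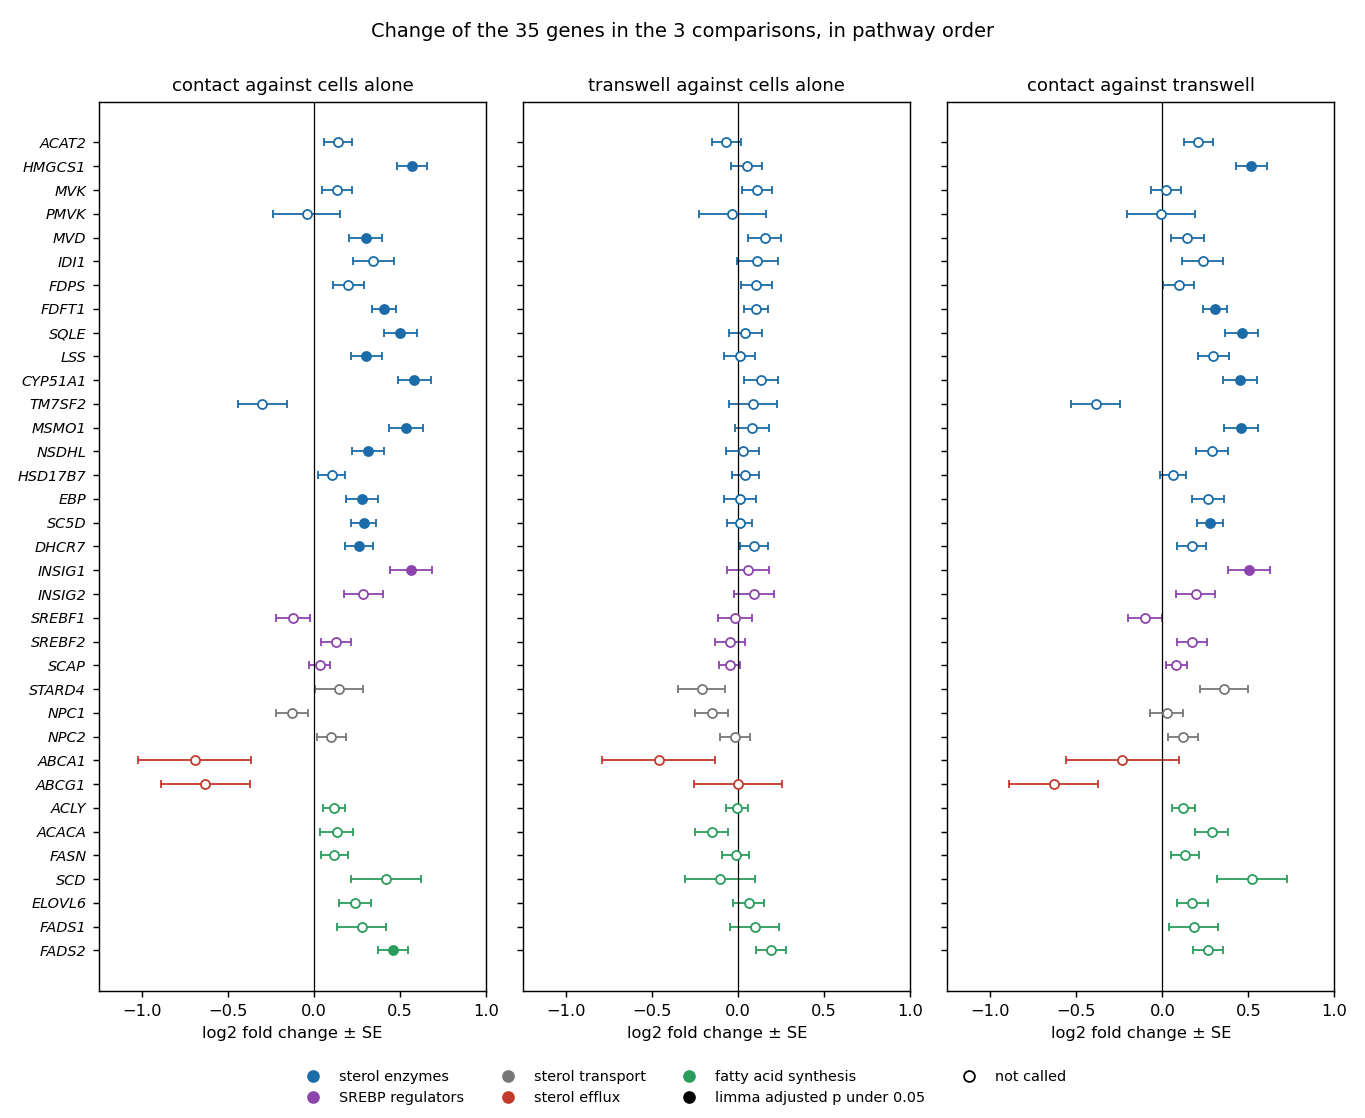
Log2 differences ± SE (horizontal axis, log2 of normalized count + 1) of all 35 genes, grouped by role, in the 3 comparisons. Filled symbols passed limma at an adjusted p under 0.05. With contact against cells alone the sterol enzymes run from -0.30 (TM7SF2) to 0.58 (CYP51A1), and no gene is filled in transwell embryos against cells alone.

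The transwell group exposed the cells to embryos without contact, the non-juxtacrine arm of the study. None of the 35 genes was called against cells alone by limma, in either direction, where 1.48% of all tested genes were called higher and 0.111% lower. At an unadjusted p under 0.05, limma gave 1 gene, FADS2 (higher, log2 difference 0.19 ± 0.09 SE), where 4.37% of all tested genes were higher and 4.02% lower. After adjustment edgeR, DESeq2 and the authors' deposited table called none. The medians were 0.07 for the sterol enzymes, -0.01 for the fatty acid genes and -0.23 for the exporters, against -0.01 for all genes. The interferon-stimulated list, by contrast, was called higher in 23 of 23 tested genes here (median 4.86) and in 23 of 23 with contact (median 6.22). A missed threshold does not show that the sterol genes were the same in both groups.

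Contact against transwell embryos compares touching with non-touching morulae. In this comparison 7 of the 35 were called higher and none lower, with 3.73% of all tested genes called higher and 1.82% lower. They were HMGCS1, FDFT1, SQLE, CYP51A1, MSMO1, SC5D and INSIG1, with the values given above. None of the 7 fatty acid genes passed, with a median of 0.18 against 0.25 for the sterol enzymes and 0.01 for all genes. In a list of 7 genes, no call is near the share of all tested genes. SCD had the largest difference of the 7 (0.52, limma adjusted p = 0.16). TM7SF2 and ABCG1 were lower in mean (-0.39 and -0.63) and not called. When blocked by number run, both were called lower (-0.32, limma adjusted p = 0.0429, and -0.80, 0.0387), and LSS and NSDHL were called higher (0.017 and 0.0359). The contact libraries serve in both contact comparisons, so the calls of both are not independent.

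In the authors' deposited table, 14 of the 35 genes had an FDR under 0.05 in contact against cells alone, all higher, namely the 13 above and IDI1 (log2 0.29, FDR = 0.0495). In contact against transwell embryos that table had 9, the 7 above with LSS and NSDHL.

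The contact libraries were unequal, and the numbers of all libraries form 3 runs (24 to 30, 83 to 90 and BEEC.103 to 110), with contact library 97 outside them. What a library number marks is not said in the labels, which speak of replicate experiments without tying libraries to them. As the mean of the 18 sterol enzymes relative to cells alone (log2), contact libraries 28, 87 and 97 stood at 0.45, 0.39 and 0.30. Contact libraries 107 and 108 stood at 0.10 and 0.12. The cells alone ranged from -0.06 to 0.05 and the transwell libraries from 0.02 to 0.12, so 107 and 108 lay near the highest transwell library. The fatty acid list stood at 0.45, 0.17, 0.22, 0.17 and 0.25 over the same contact libraries, which is a different order. The exporters stood at -0.60, -1.03, -0.64, -0.59 and -0.45, while transwell library 90 had -1.08 and transwell library 30 had 0.47.

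**Figure D3:**
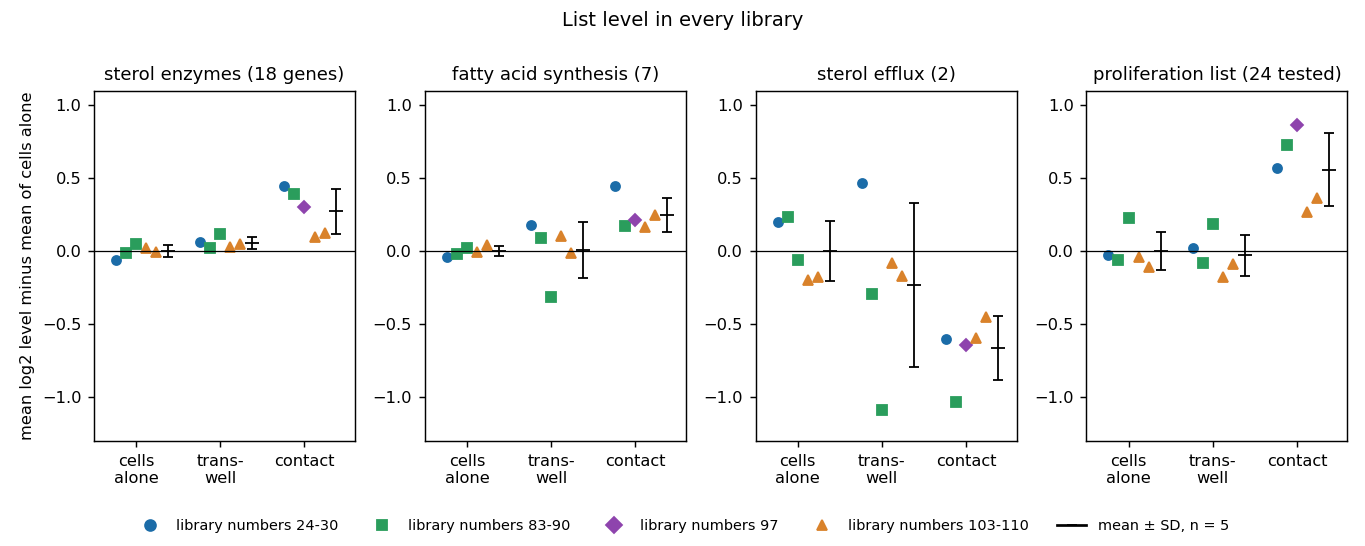
Mean log2 level of the sterol enzymes, the fatty acid genes, the exporters and the proliferation list in each library, relative to the mean of cells alone (vertical axis, log2). Symbols are single libraries, their shape and colour mark the run of library numbers, and bars are mean ± SD over 5 libraries. Contact libraries 28, 87 and 97 are the highest for the sterol enzymes at 0.30 to 0.45, and the 2 exporters range from -1.08 to 0.47.

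Within runs the contact difference of the sterol list was 0.50 in 24 to 30, 0.38 in 83 to 90 and 0.10 in BEEC.103 to 110. For the fatty acid list it was 0.49, 0.17 and 0.19, and for the exporters -0.80, -1.12 and -0.34. The first run holds 1 library of each group, the second 1 contact library, and library 97 has no partner, so these values rest on few libraries. A fit chosen after seeing the data separated the runs 24 to 90 from BEEC.103 to 110, without library 97. In the earlier runs 16 of the 35 genes were called higher, 13 of them sterol enzymes, and 1 lower, where 6.88% of all tested genes were called higher and 5.57% lower. In the run BEEC.103 to 110 none was called, where 2.01% of all tested genes were called higher and 0.398% lower, and at an unadjusted p under 0.05, 6 were higher and 1 lower, against 6.18% and 4.81% of all tested genes.

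HMGCS1 differed by 0.73 ± 0.11 SE, limma adjusted p = 0.000194 in the earlier runs and by 0.35 ± 0.12 SE, limma adjusted p = 0.188 in the later. CYP51A1 differed by 0.76 ± 0.09 SE and 0.25 ± 0.10 SE, INSIG1 by 0.92 ± 0.12 SE and 0.16 ± 0.13 SE, and FADS2 by 0.64 ± 0.12 SE and 0.28 ± 0.13 SE. ABCG1 was the gene called lower in the earlier runs (-1.05 ± 0.30 SE, limma adjusted p = 0.0325), against -0.42 ± 0.33 SE in the later. The test of the difference between the runs called none of the 35, where 0.00796% of all tested genes were called. The smallest adjusted p was 0.198 for INSIG1, whose contact difference was -0.76 ± 0.17 SE in the later run minus the earlier. For all 18 sterol enzymes the later minus the earlier difference was negative, from -0.16 to -0.52, and for TM7SF2 this meant a lower later value (-0.34) than earlier (-0.10). At an unadjusted p under 0.05 it was lower for 8 of the 18 and for 2.95% of all tested genes. The split was drawn after libraries 107 and 108 were seen to be low on this list, so these values describe the same pattern and are no independent sign of it. INSIG2 was itself called higher in cells alone of the later run than of the earlier (0.41 ± 0.09 SE, limma adjusted p = 0.0372), where 0.454% of all tested genes were called higher and 0.796% lower.

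**Figure D4:**
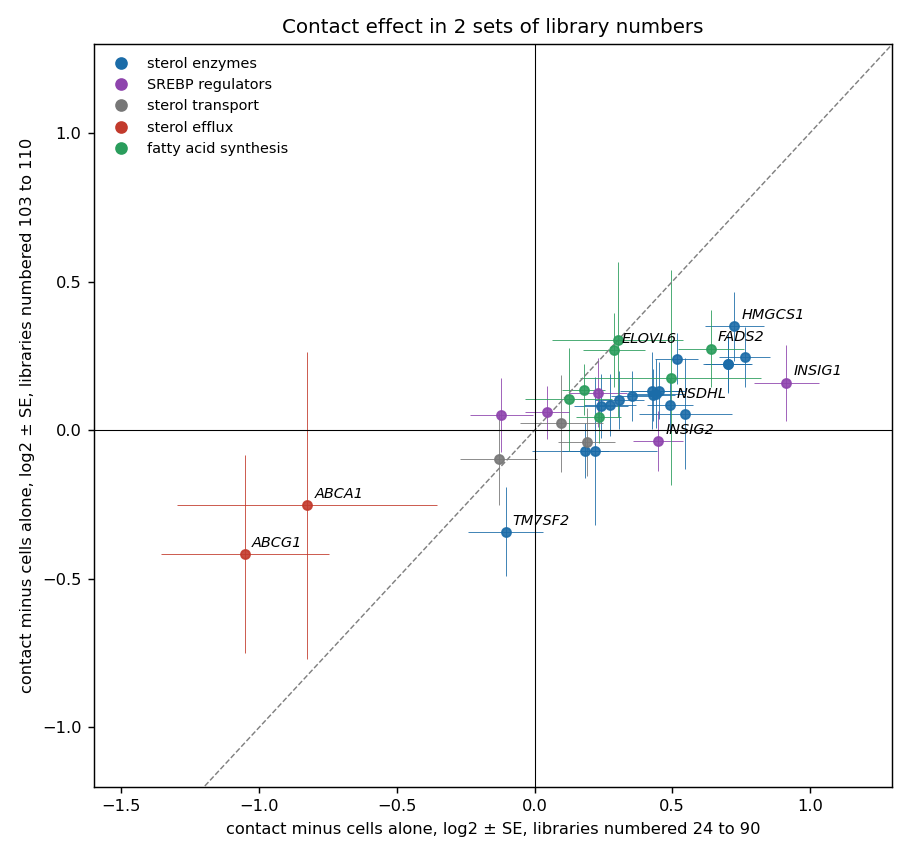
Contact minus cells alone (log2 ± SE) for each of the 35 genes in libraries numbered 24 to 90 (horizontal axis) and BEEC.103 to 110 (vertical axis), library 97 left out. The dashed line marks equal differences and colours mark roles. All 18 sterol enzymes lie below the line, and both exporters lie above it.

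Genes of dividing cells were higher with contact as well. In the proliferation list 19 of 24 tested genes were called higher in contact than in cells alone, with a median of 0.58. Of all tested genes 7.17% were called higher. Contact libraries 28, 87, 97, 107 and 108 stood at 0.57, 0.73, 0.87, 0.27 and 0.37 on this list, and the cells alone at -0.10 to 0.23. Libraries 107 and 108 were thus the lowest contact libraries on this list, as on the sterol list. Libraries 28, 87 and 97 ranked in the opposite order on the sterol list (0.45, 0.39 and 0.30). In the runs 24 to 30, 83 to 90 and BEEC.103 to 110 the contact difference of the proliferation list was 0.60, 0.64 and 0.39. That of the sterol list was 0.50, 0.38 and 0.10. The interferon list stood at 6.14, 5.90, 5.72, 5.64 and 5.62 in contact libraries 28, 87, 97, 107 and 108. Libraries 107 and 108 were thus the lowest contact libraries on the interferon list too. The part of proliferation, of the stromal and leukocyte genes named above, of the mitochondrial share and of library depth in the sterol result was not tested. With both shallow contact libraries left out, 11 of the 35 genes were called higher than in cells alone.

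Other genes of sterol and fatty acid metabolism were taken from lists, and their counts stand against the 7.17% of all tested genes called higher and 5.78% called lower. In lists this short, 1 call in either direction is near that share. Of 12 other tested genes of sterol synthesis 2 rose with contact and none fell, LBR, a nuclear membrane protein with sterol reductase activity (0.37 ± 0.09 SE, limma adjusted p = 0.00979), and ACAT1, the mitochondrial thiolase (0.24 ± 0.07 SE, limma adjusted p = 0.0233). ACAT1 lost its call without cells-alone libraries 84 (0.0692) or BEEC.104 (0.0598), or contact libraries 28 (0.0567) or 87 (0.0608). Of 10 genes that process or degrade members of the SREBP system 1 rose and 1 fell. MBTPS1, the Golgi protease that makes the first cut in SREBP, fell from 2314 ± 100.3 normalized counts in cells alone to 1570.3 ± 113 with contact (SD, n = 5 each; log2 difference -0.56 ± 0.07 SE, limma adjusted p = 1.74e-05), and all 5 contact libraries (1443 to 1732) lay below the cells alone (2168 to 2451). RNF139, a ubiquitin ligase of the endoplasmic reticulum, rose (0.27 ± 0.08 SE, limma adjusted p = 0.0218), and lost its call without cells-alone libraries 83 (0.0686) or 84 (0.0632), or contact libraries 87 (0.0708) or 97 (0.0657).

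Of 13 genes of sterol uptake and transport 1 rose and 1 fell. LIPA, the lysosomal lipase that frees cholesterol from lipoprotein esters, stood at 583 ± 45.8, 791 ± 38.1 and 1094 ± 133 normalized counts in cells alone, with transwell embryos and with contact (SD, n = 5 each). The 3 groups did not overlap. LIPA rose with contact (0.90 ± 0.08 SE, limma adjusted p = 2.75e-08), with transwell embryos (0.44 ± 0.08 SE, limma adjusted p = 0.00161) and between the groups with embryos (0.46 ± 0.08 SE, limma adjusted p = 0.000971), and was the only gene of these pathway lists called with transwell embryos. VLDLR, a lipoprotein receptor, fell with contact (-0.87 ± 0.21 SE, limma adjusted p = 0.0111). Of 7 genes of sterol storage and oxidation 2 were called lower with contact. These were CYP46A1, a sterol hydroxylase (-0.86 ± 0.17 SE, limma adjusted p = 0.00184), and CH25H, which makes an oxysterol (-2.27 ± 0.52 SE, limma adjusted p = 0.00616). CH25H was low in all groups, at most 25.2 normalized counts in a library of cells alone and 8.65 with contact. It passed the filter of 10 normalized counts in 5 libraries only through the cells alone, and no contact library reached 10. Its difference with contact thus rests on few reads, and its call is not read as a result about the list. Of 8 tested LXR targets 2 fell with contact, ABCA5, a transporter (-0.66 ± 0.10 SE, limma adjusted p = 9.31e-05), and PLTP, which transfers phospholipids (-0.52 ± 0.16 SE, limma adjusted p = 0.0321). PLTP lost its call without cells-alone libraries 83 (0.114) or 84 (0.0862), or contact libraries 28 (0.051), 87 (0.0602) or 97 (0.0904).

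Among 24 other tested genes of a fatty acid synthesis list 5 rose with contact and none fell, with a median of 0.05. The list also holds GPAM and LPIN1 of glycerolipid assembly and PNPLA2, a lipase of stored fat, none of them called. HACD2 and HSD17B12, which act in the elongation of long fatty acids, rose by 0.60 ± 0.09 SE, limma adjusted p = 5.5e-05 and by 0.54 ± 0.09 SE, limma adjusted p = 0.000282. ACSL5 and ACSL3, which join fatty acids to CoA, rose by 0.28 ± 0.05 SE, limma adjusted p = 0.000756 and by 0.35 ± 0.09 SE, limma adjusted p = 0.0105. The fifth gene was MID1IP1, a partner of acetyl-CoA carboxylase (0.37), which lost its call without cells-alone libraries 83 (0.0533) or 84 (0.0536). Of 19 genes of fatty acid oxidation none rose and 3 fell, with a median of -0.11. ACADVL, which starts the oxidation of long chains, differed by -0.22 ± 0.06 SE, limma adjusted p = 0.0233. CPT1A, which admits fatty acids to mitochondria, differed by -0.36 ± 0.10 SE, limma adjusted p = 0.0247. SLC25A20, the carrier that works with it, differed by -0.31 ± 0.10 SE, limma adjusted p = 0.0388. ACADVL lost its call without cells-alone libraries 24 (0.0703), 83 (0.0747) or 84 (0.0545), or contact library 87 (0.069). CPT1A lost it without cells-alone libraries 24 (0.0642), BEEC.103 (0.0549) or BEEC.104 (0.0505), or contact libraries 28 (0.0509), 87 (0.0803) or 97 (0.0571). SLC25A20 lost it without cells-alone libraries 24 (0.0909), 83 (0.113), 84 (0.057) or BEEC.103 (0.0762), or contact libraries 87 (0.104), 97 (0.0861) or 108 (0.0573), and when blocked by number run (0.0524). Against transwell embryos LIPA and HACD2 (0.38 ± 0.09 SE, limma adjusted p = 0.0129) were called under all 28 alternatives, and 8 further genes of these lists were called in the fit over all libraries and lost the call under at least 4 alternatives each.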

How the data were processed

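The deposited table holds, for 15 libraries, a signal that the authors made by dividing read counts per gene by one size factor per library: 100% of the values in each library came out as whole reads, to within 0.01, once divided by the smallest step. The same deposited table gives the authors' log2 fold change and their FDR, a p-value adjusted per comparison. FastQC 0.71, HISAT2 2.1.0, featureCounts 1.6.2 and DESeq2 1.18.1 are named, without their roles, per the submitters' processing notes. The build, annotation and strand setting were not given in the sources used here, so genes that overlap may share reads.

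Groups came from the library titles. The filter kept genes that reached 10 normalized counts in 5 or more libraries (12559 of 19994, with 3511 at 0 in every library). They were tested on log2(value + 1) with limma 3.58.1 in R 4.3.3, with trend and robust empirical Bayes, 1 coefficient per group over all 15 libraries, and Benjamini-Hochberg adjustment over all tested genes at 0.05. The main fit holds no term for the run of library numbers. The 28 alternatives changed pseudocount, filter, scaling, design, library weights and tool (edgeR 4.0.16 and DESeq2 1.42.0 on recovered whole reads) or left out libraries, and the fit split by run was added after seeing the data. The limma fit was tested on simulated data. Overlaps of loci come from RefSeq (ARS-UCD2.0), in which all 35 genes matched by symbol.

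The 35 genes and the 19 gene lists were chosen with earlier results of these data known. Values by library are given for up to 12 called genes with the smallest p and up to 2 uncalled genes of each role, and up to 4 called genes with the smallest p are named from each other pathway list. Some genes of these pathways are not reported here.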

Additional observations from a re-analysis of the deposited data

Results flagged for a closer look

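In 3 of 105 groups examined (35 genes in 3 groups of 5 libraries), 1 library stood apart from the other 4 by a Dixon gap test at 95%, and chance alone would flag about 1 group in 20. ABCG1, the sterol exporter, was at 30.2 normalized counts in contact library 97, and the nearest contact library had 17.7. FADS2, the fatty acid desaturase, was at 657 in contact library 28, and the nearest had 539. ACLY, which supplies cytosolic acetyl-CoA, was at 1182 in cells-alone library 83, and the nearest had 1278. Without contact library 28 the FADS2 call was kept.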

How the results depend on the processing

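Against cells alone, 13 genes were called higher (8 to 17 under 28 alternatives, 17 with only the groups compared in the fit). Leaving out 1 library at a time gave 8 to 15, upper quartile scaling gave 8, the runs 24 to 90 alone gave 16 and the run BEEC.103 to 110 alone gave 0. None was called lower, but the run as a block, library weights and the runs 24 to 90 alone each gave 1, and leaving out 1 library gave 0 to 1. That gene was ABCG1 throughout (block -0.80, limma adjusted p = 0.0212; weights -0.73, 0.0309). The median of the sterol enzymes was 0.29, with 0.26 to 0.35 under 28 alternatives, 0.44 in the runs 24 to 90 and 0.12 in the run BEEC.103 to 110. Against transwell embryos, 7 were called higher (5 to 9 under 28 alternatives). None was called lower in that comparison, with 2 under the block (TM7SF2 and ABCG1) and 0 to 1 when 1 library was left out (1 without transwell library 109 or contact library 28). With transwell embryos against cells alone, the number called was 0 under all 28 alternatives. Upper quartile scaling ended the calls of EBP, DHCR7, MVD, LSS, NSDHL and ACAT1 against cells alone (limma adjusted p = 0.0973, 0.0816, 0.0803, 0.0531, 0.0511 and 0.0611). Without a filter MVD, EBP, DHCR7 and PLTP missed the threshold (0.0563, 0.0565, 0.0618 and 0.0516). PLTP was also lost under limma-voom (0.0724), and SLC25A20 under limma-voom (0.0674), edgeR (0.0542) and the block (0.0524). With both shallow contact libraries left out, EBP, DHCR7, VLDLR, ACSL3, ACAT1, RNF139, PLTP, MID1IP1, CPT1A, SLC25A20 and ACADVL were lost against cells alone (0.0503, 0.0533, 0.0787, 0.0665, 0.0801, 0.0588, 0.143, 0.0638, 0.0586, 0.152 and 0.0579), and FDFT1 against transwell embryos (0.0645). Fitting only the groups compared ended the calls of SC5D and INSIG1 against transwell embryos (0.0779 and 0.0533), and weights (0.0786) and upper quartile scaling (0.0517) that of SC5D. No direction of a called gene reversed. The cause of these changes was not tested. The labels give the groups no shared replicate numbers, so the run of library numbers was the only block fitted. Contact library 97, alone outside the runs, does not bear on the blocked values. Contact libraries 97 and 108 hold fewer reads, which widens the counting error of low genes such as ABCG1 and PMVK most.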
